A study of Mus musculus with 4 samples.

Results

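The fibrillar and fibril-associated collagens of cartilage were followed through single-cell transcriptomes of the embryonic mouse hindlimb. The 7 genes *Col2a1*, *Col9a1*, *Col9a2*, *Col9a3*, *Col11a1*, *Col11a2* and *Col27a1* were taken by symbol from the 32288 features of the count tables, and all 7 were present in each of the 4 libraries. The tissue was hindlimb at E14.5. All embryos carried *Gli1*CreER/+, *R26*LSL-tdT/+ and *Tigre*TRE-p21/+, and all received doxycycline (1 mg/ml in drinking water, and in food) from E12.5 and tamoxifen (120 µg/g) at E13.5. Pan-Cart-p21MOE embryos had in addition *Col2a1-rtTA*, through which doxycycline switches on the cell-cycle inhibitor p21 in cartilage. Control embryos did not have it. The model is mosaic: the paper reports p21 in only part of the chondrocytes at E14.5, so Pan-Cart-p21MOE cells include cells without it. tdTomato marked the *Gli1* lineage, and sorting gave a tdT+ and a tdT- fraction. Each library joined Pan-Cart-p21MOE cells of a given sex with control cells of the other: male Pan-Cart-p21MOE with female control in the tdT+ and tdT- libraries of replicate 1, and female Pan-Cart-p21MOE with male control in those of replicate 2. The condition of a cell was therefore read from its sex, and within a library the effects of sex and condition cannot be told apart. By the study's methods the female Pan-Cart-p21MOE cells came from 1 embryo and the other pools from 2 embryos each, whereas its results describe pools of several embryos.

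Type II collagen is a homotrimer of the *Col2a1* chain and forms the bulk of the cartilage fibril. Type XI collagen, built from *Col11a1*, *Col11a2* and a further product of *Col2a1*, nucleates the fibril and limits its width, and type IX collagen, with 1 chain each of *Col9a1*, *Col9a2* and *Col9a3*, sits on the fibril surface. *Col27a1* encodes a fibrillar chain found mainly in cartilage. SOX9, with SOX5 and SOX6, activates most of these genes as mesenchyme condenses and chondrocytes form.

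The chains share a triple helix in which glycine takes 1 of every 3 residues, and that repeat can be read in the coding sequence as a GGN codon at 1 of every 3 codons. To show it, 5 consecutive repeats of each gene's longest such run are printed 5′ to 3′ from the spliced coding sequence (GRCm38 genome and annotation), with the glycine codons in capitals.
Col2a1: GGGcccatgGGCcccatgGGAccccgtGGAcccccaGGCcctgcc
Col9a1: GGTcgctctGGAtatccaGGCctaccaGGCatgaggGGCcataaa
Col9a2: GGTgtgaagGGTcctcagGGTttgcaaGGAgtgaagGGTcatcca
Col9a3: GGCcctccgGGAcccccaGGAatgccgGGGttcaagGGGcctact
Col11a1: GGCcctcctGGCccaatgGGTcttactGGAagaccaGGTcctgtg
Col11a2: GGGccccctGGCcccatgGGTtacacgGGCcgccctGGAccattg
Col27a1: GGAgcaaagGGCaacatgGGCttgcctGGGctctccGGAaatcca
The longest run held 339 repeats in *Col2a1*, 338 in *Col11a1*, 338 in *Col11a2* and 217 in *Col27a1*. In *Col9a1*, *Col9a2* and *Col9a3*, whose helix is interrupted, it held 113. Among 21721 protein-coding genes, 15 (0.0691%) had a run of at least 100 repeats, and the 7 genes were among them.

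The genes differ far more in genomic length than in coding length. *Col11a1* (chr3:114030540-114220718, plus strand, 67 exons in the transcript used) spans 190 kb and *Col27a1* (chr4:63214004-63334991, plus strand, 61 exons) 121 kb. *Col9a1* (chr1:24177610-24252684, plus strand, 38 exons) spans 75.1 kb, *Col2a1* (chr15:97975602-98004695, minus strand, 54 exons) 29.1 kb and *Col11a2* (chr17:34039437-34066685, plus strand, 66 exons) 27.2 kb. *Col9a3* (chr2:180597790-180622189, plus strand, 32 exons) spans 24.4 kb and *Col9a2* (chr4:121039385-121055322, plus strand, 32 exons) 15.9 kb. Whether reads in introns were counted is not given in the sources used here.

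The count tables held 20770520 UMIs in 4072 barcodes and 11945062 UMIs in 2541 barcodes for the tdT+ and tdT- libraries of replicate 1, and 31871634 UMIs in 6455 barcodes and 39435830 UMIs in 5887 barcodes for those of replicate 2. The 7 genes took 0.638% to 0.991% of a library's UMIs. Barcodes under 1000 UMIs made up 68.9% to 81.9% of tdT+ 1, tdT- 1 and tdT+ 2 and 33.0% of tdT- 2, named here by fraction and replicate. Pairs of libraries shared 3 to 12 barcodes. After filtering, 2739 cells could be given a condition, 231, 101, 652 and 780 of them Pan-Cart-p21MOE in tdT+ 1, tdT- 1, tdT+ 2 and tdT- 2. They formed 21 clusters, made without the 7 genes and named from marker lists that left them out. Of these, 6 clusters with 1030 cells made up the chondrocyte-like class: 194 resting-like, 300 proliferative-like and 96 hypertrophic-like cells, and 440 cells that took no zone. All 8 general chondrocyte markers (*Sox9*, *Sox5*, *Sox6*, *Acan*, *Hapln1*, *Snorc*, *Cnmd* and *Matn4*) were counted in the class. They were also counted in muscle-like, immune-like and fibroblast-like cells, so their presence alone does not set the class apart. Their summed level, in CPM as defined below, ran from 6411 in resting-like to 8358 in unzoned cells. Among the other named classes it ran from 477 in fibroblast-like to 5169 in interzone-like cells. Unnamed cluster 21, outside the class, held 7841. Hypertrophic-like cells held 2163 CPM of their own zone markers, under osteoprogenitor-like cells (2346). They also held the highest sum of endothelial markers of any class (406 CPM). Whether other cells were mixed into the hypertrophic-like class was not tested. The stress genes *Hspa1b* and *Hspa1a* were among the 10 leading genes of the resting-like cluster and of a proliferative-like cluster. Clusters 15, 18, 20 and 21 (78, 37, 17 and 12 cells) were unnamed, came almost wholly from Pan-Cart-p21MOE cells of replicate 2 and stayed outside the class. UMIs were summed over the cells of a class in each library and condition, and levels are CPM, counts scaled to the same total in each sum, with SD over the sums. They come from 3′ tags and are not divided by length, so chains are compared as counts of molecules and not as protein. Clusters were built from the same cells, so differences between classes are described without a test.

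*Col2a1* led in every chondrocyte-like zone. Its level was 5692 ± 483 CPM in resting-like (n = 8), 6840 ± 1185 in proliferative-like (n = 8) and 10858 ± 2183 in hypertrophic-like cells (n = 5, from 3 libraries), and 5142 ± 685 in those without a zone (n = 8). The step from proliferative-like to hypertrophic-like was larger than the SD of either, although the ranges overlapped. It is a step in the sums and not in the typical cell. Over cells of at least 3000 UMIs, the median was 6604 CPM in 91 hypertrophic-like and 6509 in 279 proliferative-like cells. The 5th and 95th percentiles were 278 and 22086 CPM in the former and 1214 and 15209 in the latter. The resting-like mean was below the proliferative-like mean by more than the resting-like SD and by less than the proliferative-like SD, and *Col2a1* was higher in proliferative-like cells in 7 of 8 sums (mean log2 ratio 0.25 ± 0.30). Among the type IX chains, *Col9a3* was counted most, at 3485 ± 246 CPM in resting-like and 3827 ± 543 in proliferative-like cells. *Col9a1* reached 1432 ± 149 and 1661 ± 378 CPM in the same classes, and *Col9a2* 1627 ± 167 and 1619 ± 326. These chains stayed close to level along the first zones. Within a library and condition, the log2 ratio of proliferative-like to resting-like was 0.12 ± 0.26 for *Col9a3*, 0.19 ± 0.40 for *Col9a1* and -0.03 ± 0.34 for *Col9a2* (SD, n = 8).

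The type XI chains and *Col27a1* had their highest mean among the zones in hypertrophic-like cells. *Col11a1* stood at 1803 ± 299 CPM in resting-like, 2132 ± 677 in proliferative-like, 3119 ± 399 in unzoned and 4898 ± 1911 in hypertrophic-like cells. *Col11a2* stood at 468 ± 58.6, 649 ± 140, 622 ± 56.5 and 1118 ± 379 CPM in the same order. *Col27a1*, the lowest, stood at 325 ± 30.9, 380 ± 130, 469 ± 63.3 and 528 ± 182 CPM. Medians over single cells of at least 3000 UMIs lay closer in hypertrophic-like and unzoned cells for the type XI chains. They were 3086 and 2806 CPM for *Col11a1*, and 630 and 589 for *Col11a2*. For *Col27a1* the order was reversed, at 329 CPM in hypertrophic-like and 432 in unzoned cells. Hypertrophic-like cells exceeded proliferative-like cells of the same library and condition for *Col11a1* in 5 of 5 sums (mean log2 ratio 1.29 ± 0.98), and for *Col9a3* in 2 of 5 (-0.12 ± 0.30).

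The unzoned cells differed from the resting-like cells in the balance of their chains. *Col11a1* was higher in 8 of 8 sums (log2 ratio 0.80 ± 0.25), *Col11a2* in 8 of 8 (0.42 ± 0.27) and *Col27a1* in 7 of 8 (0.53 ± 0.25). *Col9a2* and *Col9a3* were lower in 8 of 8 (-0.30 ± 0.20 and -0.28 ± 0.12), and *Col2a1* in 6 of 8 (-0.15 ± 0.20). With the 7 genes among those used for clustering, *Col11a1* remained higher (1.17), but *Col2a1*, *Col9a2* and *Col9a3* turned to 0.39, 0.25 and 0.09, so their direction rests on how the classes were drawn. The proliferative-like class was itself uneven. In all cells of its cluster 6 *Col11a1* stood at 1043 CPM and *Col27a1* at 173, against 2993 and 480 in its cluster 10, while *Col9a3* stood at 3753 and 4117.

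**Figure D1:**
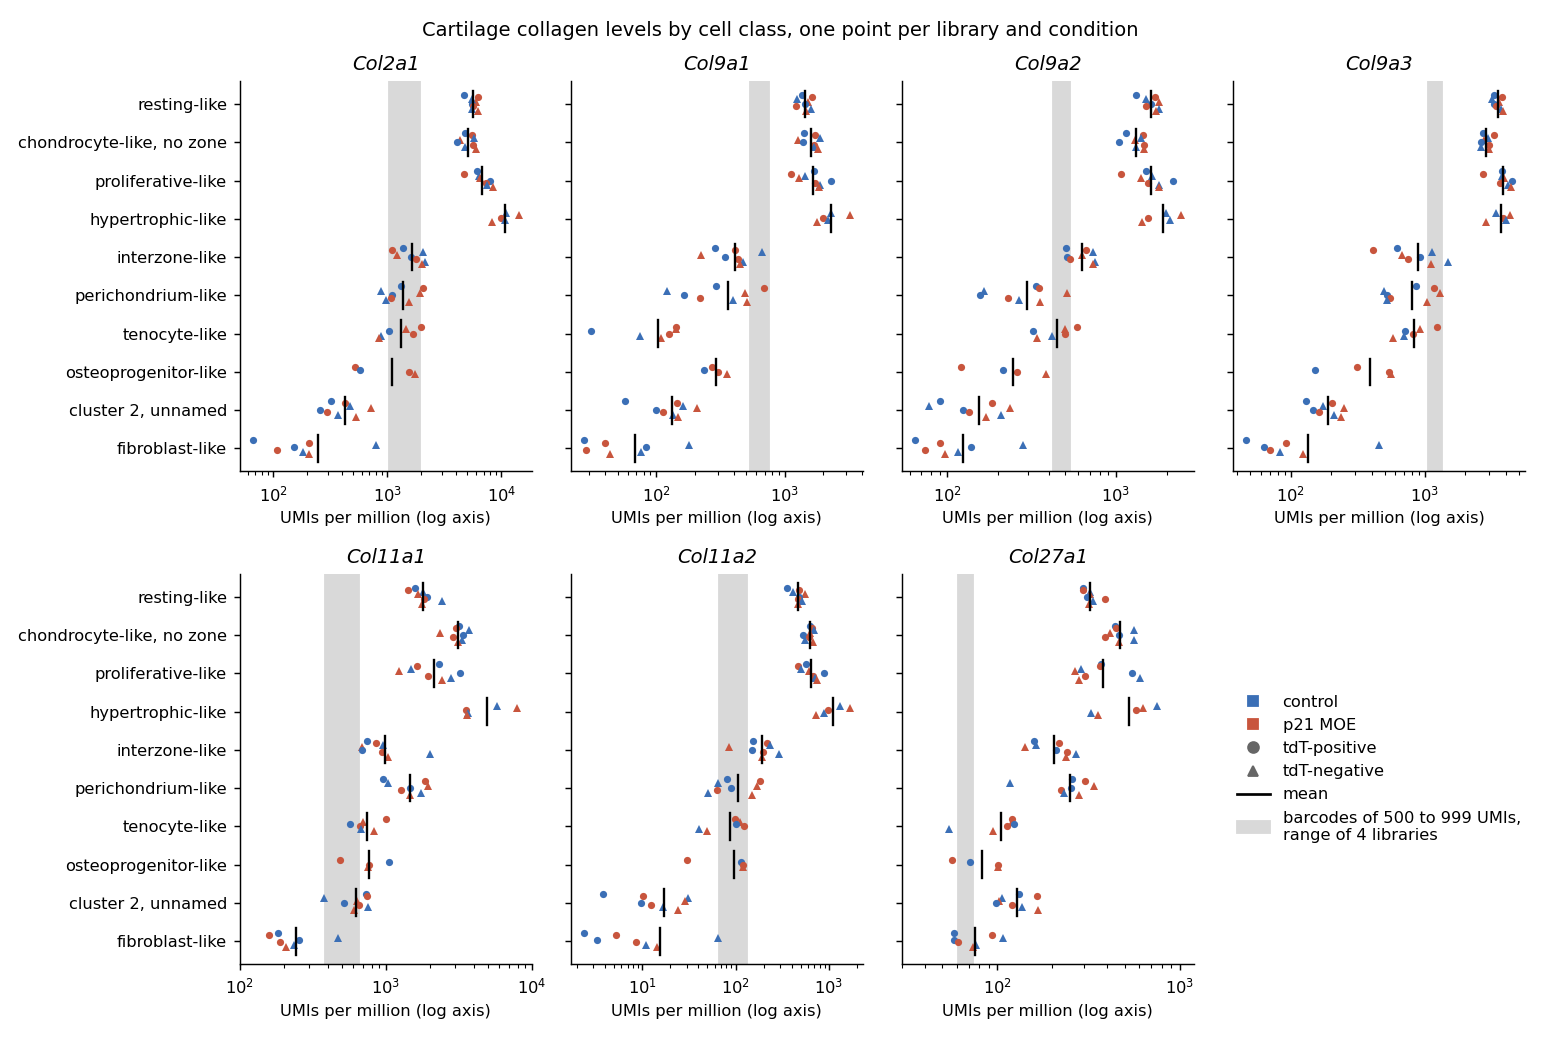
Levels of the 7 genes (CPM, log axis) by cell class, with a point for each library and condition of at least 5 cells, coloured by condition and shaped by sorted fraction, a black line at the mean, and a grey band over the range of barcodes of fewer than 1000 UMIs in the 4 libraries. Every chondrocyte-like point lies above the band in each panel, and the perichondrium-like points lie above it for *Col11a1* (965 to 1941) and *Col27a1* (118 to 341) but across or below it for the other genes.

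Each class named from its markers other than the chondrocyte-like ones had a lower mean of each of the 7 genes than every chondrocyte-like zone. The interzone-like cells, which precede the joint, were below the resting-like cells in 8 of 8 sums for each of the 7 genes, from -2.07 ± 0.60 (log2) for *Col9a3* to -0.69 ± 0.31 for *Col27a1*. Unnamed cluster 11 (130 cells led by *Isl1*, *Nkain2* and *Mecom*) held *Col2a1* at 2516 ± 769 CPM (n = 7), without overlap with the unzoned cells. *Col2a1* declined from 1664 ± 397 CPM in interzone-like (n = 8) through 1370 ± 451 in perichondrium-like (n = 8), 1312 ± 459 in tenocyte-like (n = 6) and 1098 ± 642 in osteoprogenitor-like cells (n = 4), neighbours that did not differ beyond their SD. Unnamed cluster 5 (1325 ± 504 CPM, n = 7) lay among them. It stood at 425 ± 152 in unnamed cluster 2 (293 cells led by *Epha3*, *Runx2*, *Alpl* and *Aspn*) and at 245 ± 248 CPM in fibroblast-like cells (n = 7), with unnamed cluster 13 between them (386 ± 167, n = 7). *Col11a1* declined less, to 1464 ± 365 CPM in perichondrium-like and 628 ± 127 in cluster 2, and *Col27a1* to 251 ± 66.4 and 129 ± 27.4. The perichondrium-like name is weakly held, with 1 of its list markers, *Tnn*, among the 10 leading genes. Its list markers summed to 726 CPM there, below cluster 2 (1337), fibroblast-like cells (1035), cluster 11 (887) and tenocyte-like cells (803). The fibroblast-like name is weakly held too, with 1 of its list markers, *Osr1*, among the 10 leading genes. Those list markers summed to 666 CPM in fibroblast-like cells, only just above cluster 20 (663). Cluster 13 (637), cluster 11 (614) and osteoprogenitor-like cells (608) were also close. No cluster took the fibroblast-like name in the other clustering settings given below.

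RNA free in the suspension reaches every droplet, so barcodes of fewer than 1000 UMIs were summed as its closest measure, although damaged cells may be among them. They held 3808 and 4320 CPM of the 7 genes in tdT+ 1 and tdT- 1, and 3609 and 5329 in tdT+ 2 and tdT- 2. Their *Col2a1* (1039 to 1952 CPM) overlapped the levels of interzone-like (1095 to 2139), perichondrium-like (885 to 2082), tenocyte-like (849 to 1965) and osteoprogenitor-like sums (520 to 1741). By these CPM ranges alone, *Col2a1* in those classes could not be told apart from the shallow barcodes, and the share of free RNA in deeper cells was not tested. After each cell was thinned to 1000 UMIs, a UMI of *Col2a1* was in 73.2% of interzone-like, 57.0% of perichondrium-like, 52.2% of tenocyte-like and 56.4% of osteoprogenitor-like cells. The same share was 16.1% in fibroblast-like, 37.0% in muscle-like and 71.9% in immune-like cells. Fibroblast-like sums (66.6 to 795 CPM) all lay under the shallow barcodes, and so did the muscle-like cells of tdT+ 1, tdT- 1 and tdT+ 2, where the 7 genes together reached 400, 116 and 719 CPM in 2, 3 and 11 cells. In tdT- 2 the 30 muscle-like cells held 2662 CPM and the 28 immune-like cells 5273 CPM, or 14.6% and 29.0% of the chondrocyte-like level of that library, so these classes did not hold the same level in every library.

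The proportions of the genes to each other also differed between classes. The UMIs of *Col11a1* were 0.329 to 0.467 of those of *Col2a1* in the shallow barcodes and 0.319 ± 0.061 in resting-like cells. In perichondrium-like cells they were 1.12 ± 0.318 (0.733 to 1.76 over 8 sums), in cluster 2 they were 1.64 ± 0.61 (0.808 to 2.29), and in fibroblast-like cells 1.41 ± 0.74 (0.589 to 2.77). *Col11a1* made up 32.3% of the UMIs of the 7 genes in perichondrium-like cells and 38.0% in cluster 2, against 12.2% in resting-like and 12.3% in proliferative-like cells. *Col27a1* likewise took 5.47% and 7.83% there, against 2.20% and 2.23%. *Col11a1* and *Col27a1* are also the 2 longest of the 7 genes, and the part of gene length in these proportions was not tested.

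*Col11a2*, whose product joins that of *Col11a1* in the type XI trimer of cartilage, did not follow its partner. For each UMI of *Col11a2* there were 3.88 ± 0.63 of *Col11a1* in resting-like and 3.27 ± 0.64 in proliferative-like cells, and 16.3 ± 8.2 (9.69 to 34.4) in perichondrium-like cells. The ratio rose to 58.9 ± 56.4 in cluster 2 and 35.9 ± 29.7 in fibroblast-like cells, where *Col11a2* was low (17.2 ± 9.9 and 15.7 ± 22.0 CPM). To set the pair side by side, the 250 bases before the RefSeq start of each (GRCm38.p6, plus strand) are printed, with GC boxes (GGGCGG or CCGCCC) and the TATA motif (TATAAA or TTTATA) in capitals.
Col11a1, chr3:114030290-114030539: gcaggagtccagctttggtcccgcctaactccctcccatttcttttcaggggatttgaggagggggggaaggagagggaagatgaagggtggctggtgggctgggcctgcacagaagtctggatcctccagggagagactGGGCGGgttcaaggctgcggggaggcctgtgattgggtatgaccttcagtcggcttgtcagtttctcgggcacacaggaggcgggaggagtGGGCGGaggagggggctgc
Col11a2, chr17:34038888-34039137: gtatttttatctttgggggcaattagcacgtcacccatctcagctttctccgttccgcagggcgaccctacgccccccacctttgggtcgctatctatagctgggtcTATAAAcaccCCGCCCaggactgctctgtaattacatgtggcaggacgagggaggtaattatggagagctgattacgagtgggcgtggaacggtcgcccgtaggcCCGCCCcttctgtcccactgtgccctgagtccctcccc
Both windows held 2 GC boxes, and at least 1 was in 32.7% of 32851 such windows. The *Col11a2* window also held a TATA motif, which was in 12.4%. The core SOX letters AACAAT or ATTGTT were in neither window, nor in the 4 windows found for *Col9a1*, *Col9a2* and *Col27a1*, and in 9.42% of all windows. These are matches of letters in a short stretch and not sites of binding.

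**Figure D2:**
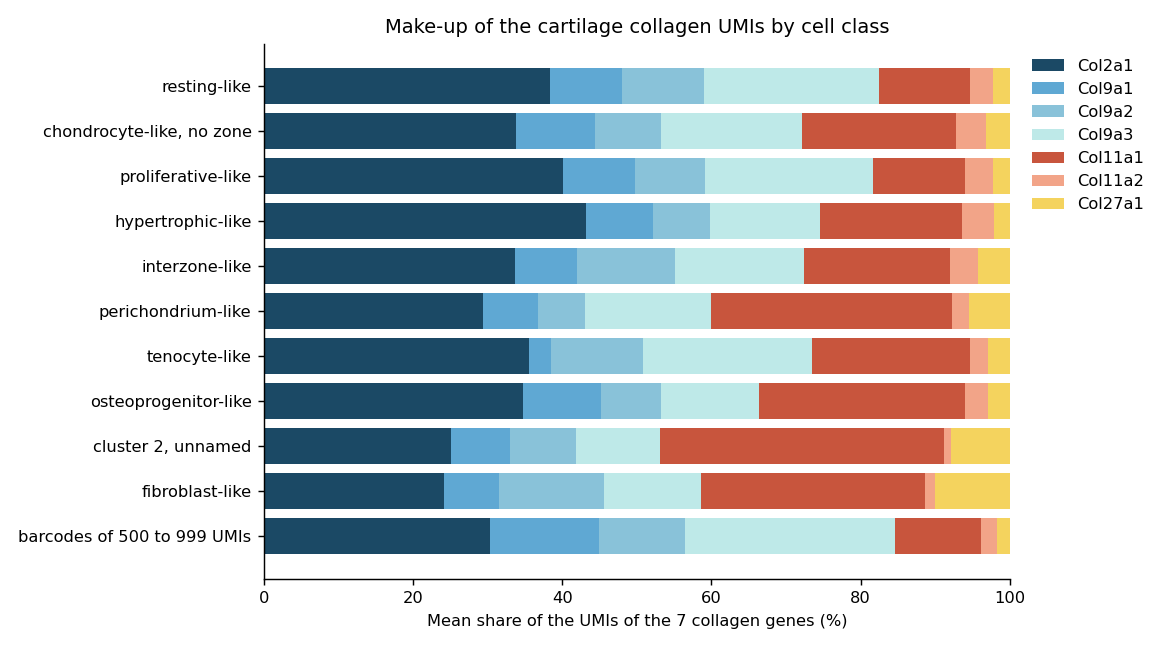
Mean share (%) of each of the 7 genes in their summed UMIs, by cell class and in barcodes of fewer than 1000 UMIs. *Col11a1* takes 12.2% in resting-like and 12.3% in proliferative-like cells, 20.6% in unzoned chondrocyte-like cells, and 32.3% in perichondrium-like cells and 38.0% in cluster 2.

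The type IX chains parted in tenocyte-like cells. For each UMI of *Col9a3* there were 0.411 ± 0.029 of *Col9a1* in resting-like cells and 0.432 ± 0.058 in proliferative-like cells, 0.523 ± 0.060 in the shallow barcodes, and 0.127 ± 0.050 in tenocyte-like cells (0.0435 to 0.188 over 6 sums). *Col9a2* stayed in proportion to *Col9a3* there, at 0.547 ± 0.068 against 0.467 ± 0.033 in resting-like cells. *Col9a1* stood at 104 ± 43.9 CPM in tenocyte-like cells (31.0 to 143), under the shallow barcodes of every library (539 to 757 CPM), and *Col9a2* at 444 ± 102 CPM (321 to 586), across their range (422 to 534).

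Most single chondrocyte-like cells held most of the 7 genes. After each of the 1030 chondrocyte-like cells was thinned to 1000 UMIs, 96.3% held a UMI of *Col2a1*, 88.3% of *Col9a3*, 83.7% of *Col11a1*, 74.3% of *Col9a1* and 72.9% of *Col9a2*, but 42.1% of *Col11a2* and 28.4% of *Col27a1*. Without thinning (median 22754 UMIs a cell) these shares were 91.6% to 99.3%. Muscle-like cells (median 22396 UMIs), which should lack these genes, held a UMI of *Col2a1* in 37.0%, of *Col11a1* in 28.3% and of *Col27a1* in 6.52% at the same thinned depth. In fibroblast-like cells (median 27049 UMIs) these shares were 16.1%, 19.7% and 5.73%. The 32 immune-like cells (median 12546.5 UMIs, 28 of them from tdT- 2) should lack these genes too, but held them in 71.9%, 65.6% and 21.9%. *Col11a2* was in 34.4% of immune-like, 0% of muscle-like and 1.79% of fibroblast-like cells. Detection at this depth therefore did not set chondrocyte-like cells apart from every other class. Over 981 chondrocyte-like cells with at least 3000 UMIs, *Col2a1* ran from 1691 CPM at the 5th percentile through a median of 5710 to 15056 at the 95th. Within a library, cells correlated at r = 0.806 to 0.846 for *Col2a1* and *Col9a3*, at 0.564 to 0.663 for *Col11a1* and *Col27a1* and at 0.252 to 0.383 for *Col9a3* and *Col27a1*. These are descriptions over cells of the same library, which share depth and zone.

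Across the 21 clusters, the levels most like that of *Col2a1* among 9500 genes were those of *Col9a3* (r = 0.981), *Col9a2* (0.972) and *Col11a2* (0.969). *Col9a1* was most like *Col2a1* (0.965), *Col11a2* (0.964) and *Susd5* (0.955), *Col9a2* most like *Col2a1*, *Col9a3* (0.969) and *Col11a2* (0.957), and *Col9a3* most like *Col2a1*, *Col9a2* and *Ncmap* (0.965). *Col11a2* was most like *Col2a1*, *Susd5* (0.968) and *Col9a1*. *Col11a1* was most like *Xylt1* (0.935), which encodes an enzyme that starts proteoglycan chains, *Col27a1* (0.931) and *Chst11* (0.917), a chondroitin sulfotransferase gene. *Col27a1* was most like *Col11a1*, *Wdr35* (0.918), a gene of the ciliary transport machinery, and *Xylt1* (0.915). *Col2a1* and *Col27a1* were at 0.797. The clusters share cells' libraries and depth, and r is a description of log2(CPM + 1).

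Whether these genes differed between Pan-Cart-p21MOE and control was tested on the chondrocyte-like sums of 4 Pan-Cart-p21MOE and 4 control samples, with TMM-scaled CPM as levels. The Pan-Cart-p21MOE sums mix cells with and without p21, which were not separated. The tdT+ and tdT- samples of a pool share embryos, so the p-values rest on 8 sums from 2 pools a condition and measure the spread between these sums. *WPRE* is a transgene element in the custom reference. The paper states that 3′ reads of the tdTomato and p21 transgenes both fall mostly on it. *WPRE* is therefore not particular to p21, and *Cdkn1a*, which encodes p21, does not measure the transgene in full. In tdT+ 1, tdT- 1, tdT+ 2 and tdT- 2 *WPRE* stood at 1208, 978, 1789 and 1279 CPM in Pan-Cart-p21MOE and 620, 112, 441 and 70.8 in control cells. Its log2 fold change was 2.53 (edgeR quasi-likelihood adjusted p = 0.0112, Benjamini-Hochberg). *Cdkn1a* did not pass (0.37, edgeR adjusted p = 0.672). The threshold of 0.05 on adjusted p was met by 65 of 12217 genes (0.532%) and by 0 of the 7 collagen genes. An unadjusted p under 0.05 was found for 2 of the 7 and for 10.9% of all genes.

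These 2 were *Col2a1* and *Col27a1*. *Col2a1* stood at 5911, 6976, 6512 and 7304 CPM in Pan-Cart-p21MOE cells of tdT+ 1, tdT- 1, tdT+ 2 and tdT- 2, and at 5355, 6393, 5533 and 7219 CPM in the control cells of the same libraries. It was higher in Pan-Cart-p21MOE in 4 of 4 libraries although the groups overlapped, and tdT- libraries were higher than tdT+ libraries in both conditions. The log2 fold change was 0.13 (95% interval 0.00 to 0.26, edgeR adjusted p = 0.433), and without unzoned cluster 12 it was 0.03. *Col27a1* stood at 411, 384, 384 and 363 CPM in Pan-Cart-p21MOE and at 388, 431, 457 and 535 CPM in control, lower in 3 of 4 libraries with overlap at a single library, tdT+ 1. Its log2 fold change was -0.23 (-0.45 to -0.01, edgeR adjusted p = 0.417). An exact permutation test gave p = 0.0571 for *Col27a1* and 0.314 for *Col2a1*. It took the sums as independent, although the fractions of a pool share embryos.

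The type IX chains lay close to 0. Their log2 fold change was 0.01 (-0.14 to 0.15) for *Col9a1*, 0.03 (-0.11 to 0.17) for *Col9a2* and 0.01 (-0.10 to 0.13) for *Col9a3*. For *Col11a2* it was 0.12 (-0.04 to 0.28). *Col11a1* stood at 2397, 2761, 2558 and 2750 CPM in Pan-Cart-p21MOE and 2546, 2659, 3210 and 3134 in control, lower in 3 of 4 libraries (-0.14, -0.32 to 0.03). Without the hypertrophic-like cells the log2 fold change was -0.27 (SE 0.11) for *Col11a1* and -0.33 (SE 0.11) for *Col27a1*, neither past the threshold. Cluster 12, which has the lowest *Col2a1* of the class (3697 CPM), made up 19.4%, 33.3%, 23.0% and 11.0% of the unzoned Pan-Cart-p21MOE cells and 41.5%, 55.4%, 44.7% and 23.5% of the unzoned control cells, and its part in the differences was not tested beyond leaving it out.

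**Figure D3:**
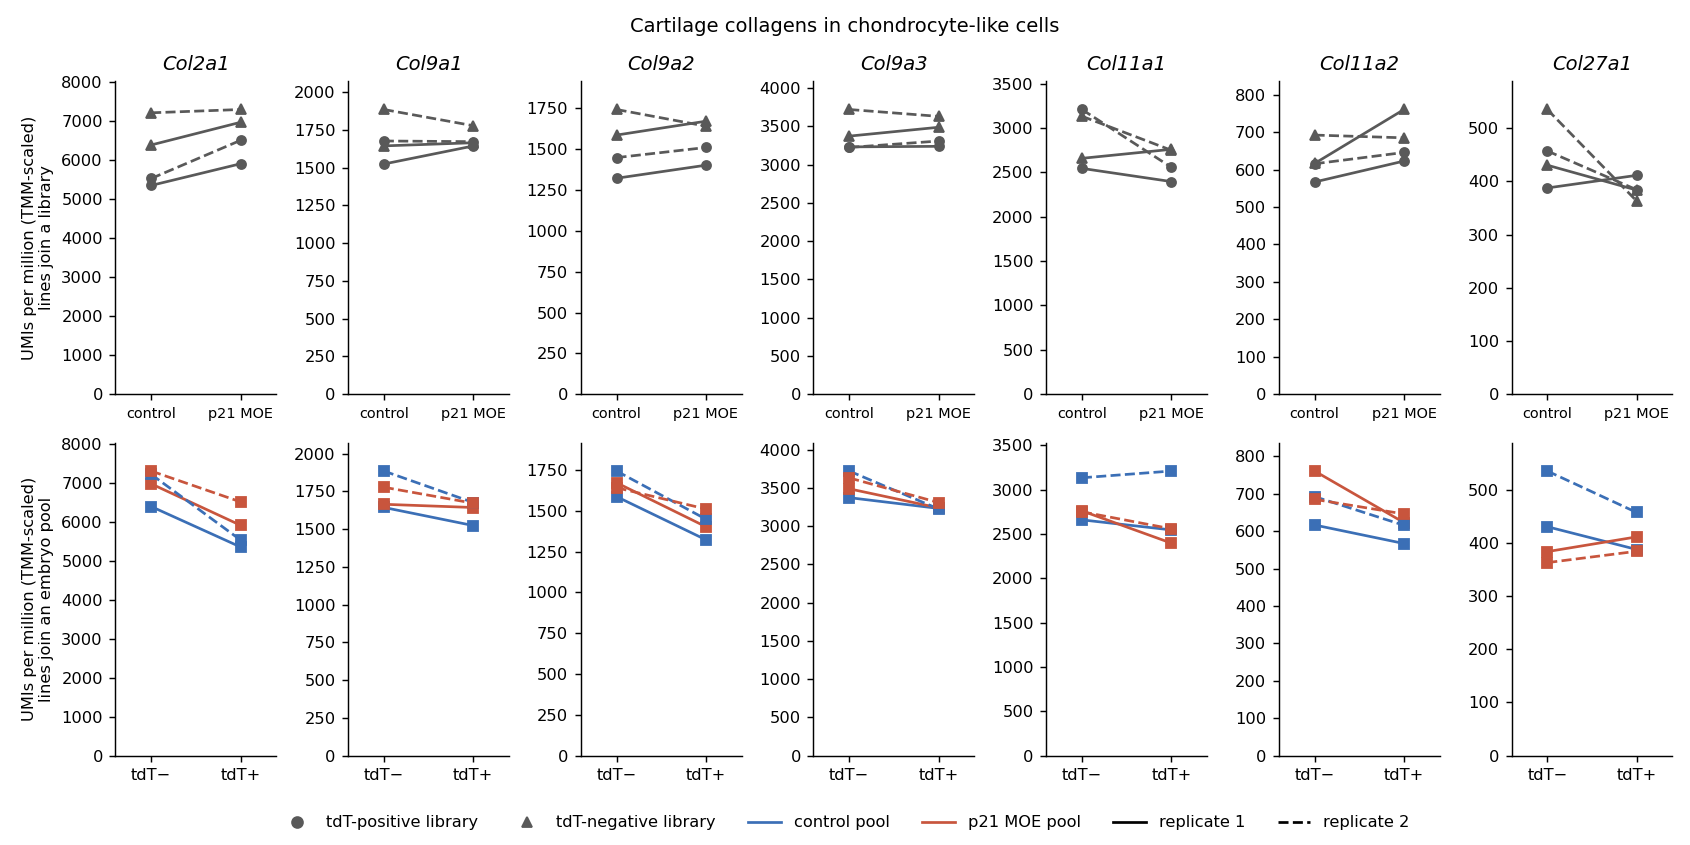
TMM-scaled CPM of each gene in chondrocyte-like cells. In the upper row lines join the control and Pan-Cart-p21MOE cells of a library, and in the lower row the tdT- and tdT+ cells of an embryo pool. *Col2a1* was higher in Pan-Cart-p21MOE in 4 of 4 libraries and lower in tdT+ than tdT- cells in 4 of 4 pools.

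In resting-like cells the tested sums were small, at 11 to 57 cells. Of 5914 genes tested, 0 (0%) passed in edgeR (15 in DESeq2 and 6 in limma voom), and 435 (7.36%) had an unadjusted p under 0.05. *Col11a1* was the only collagen of the 7 among the latter. It stood at 1381, 1611, 1798 and 1746 CPM in Pan-Cart-p21MOE and 1650, 1830, 1949 and 2483 in control, lower in 4 of 4 libraries while the groups overlapped (log2 fold change -0.27, -0.52 to -0.02, edgeR adjusted p = 0.661). With barcodes from 3000 UMIs it was -0.42 and passed (edgeR adjusted p = 0.00811), and in that setting 102 genes passed. The other 6 ranged from -0.03 to 0.11, with *Col2a1* at 0.11 (-0.02 to 0.24).

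In proliferative-like cells, 8 of 9387 genes (0.0852%) passed, none of them a cartilage collagen, and 6.22% had an unadjusted p under 0.05. All 7 had a log2 fold change under 0, from -0.09 (-0.41 to 0.23) for *Col2a1* to -0.62 (-1.08 to -0.16) for *Col27a1*. *Col27a1* stood at 368, 258, 304 and 276 CPM in Pan-Cart-p21MOE and 372, 301, 561 and 606 in control, lower in 4 of 4 libraries with most of the difference in replicate 2 (edgeR adjusted p = 0.629). Without the control cells of tdT- 2 it was -0.35. *Col11a1* followed at 1627, 1191, 1958 and 2394 CPM against 2305, 1558, 3265 and 2774, also lower in 4 of 4 (-0.44, -0.92 to 0.03, edgeR adjusted p = 0.832). *Col9a1* (-0.32) and *Col9a2* (-0.33) were lower in 4 of 4 libraries as well, and *Col9a3* (-0.20), *Col11a2* (-0.13) and *Col2a1* in 2 or 3 of 4. The low-*Col11a1* cluster 6 made up 50%, 50%, 40.5% and 56.1% of the proliferative-like Pan-Cart-p21MOE cells and 61.3%, 79.6%, 16.7% and 41.7% of the control cells, and within cluster 10 alone *Col27a1* was at -0.56 and *Col11a1* at -0.32. Whether the zones differ in their response was not tested.

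**Figure D4:**
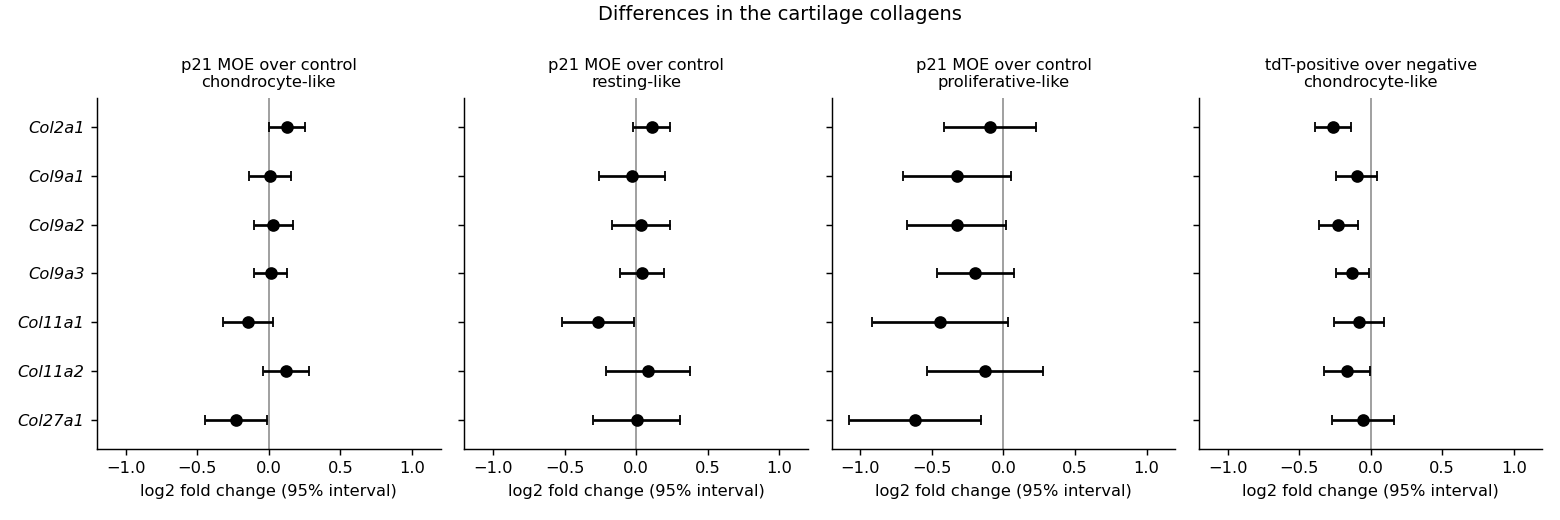
Log2 fold changes of the 7 genes with 95% intervals (edgeR) for Pan-Cart-p21MOE over control in chondrocyte-like, resting-like and proliferative-like cells and for tdT+ over tdT- in chondrocyte-like cells. Intervals clear of 0 are those of *Col2a1* and *Col27a1* in the first panel, *Col11a1* in resting-like, *Col27a1* in proliferative-like cells, and *Col2a1*, *Col9a2*, *Col9a3* and *Col11a2* in the last, and none passed the adjusted threshold.

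The genes that act with these collagens were read from lists of chain modification, processing, receptors, fibril partners and other collagens. In chondrocyte-like cells, 1 of 16 cartilage regulators and fibril partners passed, *Matn3*, a matrilin that links type IX collagen to other matrix proteins. It stood at 114, 123, 115 and 140 CPM in Pan-Cart-p21MOE and 195, 264, 257 and 372 CPM in control (log2 fold change -1.12, SE 0.13, edgeR adjusted p = 0.00292). The list's median was -0.15, against 0.00 over all genes tested, and its next member by p, *Matn4*, was at -0.39 (edgeR adjusted p = 0.0681). Of 25 genes of chain modification, folding and export 0 passed (median 0.05), with *Sec24d*, a coat protein of procollagen export, at -0.47 and *P4ha1*, a prolyl hydroxylase subunit, at 0.21. Of 13 genes of processing and crosslinking 0 passed (median 0.13), with *Adamts3* at -0.50 and *Bmp1* at 0.32, both procollagen proteases. Of 7 collagen receptors 0 passed (median 0.20), with *Itga10* at 0.55 and *Ddr1* at 0.45. Of 13 other collagens tested 0 passed (median -0.19), with *Col24a1* at -0.71 and *Col1a2* at -0.29. In resting-like and proliferative-like cells 0 genes of these lists passed, and *Matn3* was at -1.49 and -1.10 (edgeR adjusted p = 0.0611 and 0.132).

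Chondrocyte-like cells of the *Gli1* lineage had a lower *Col2a1* level than the others in each pool. It stood at 5355 and 5911 CPM in control and Pan-Cart-p21MOE tdT+ cells of replicate 1 and 5533 and 6512 in those of replicate 2, and at 6393, 6976, 7219 and 7304 CPM in the matching tdT- cells. The tdTomato transcript was higher in tdT+ cells (log2 fold change 3.93, edgeR adjusted p = 0.00105). *Col2a1* was lower in tdT+ in 4 of 4 embryo pools (log2 fold change -0.26, -0.39 to -0.14, edgeR adjusted p = 0.382), and 3 of 12217 genes (0.0246%) passed, none of them a collagen of cartilage. With the embryo pool as a block, which uses that both fractions come from the same embryos, *Col2a1* passed at -0.26 (SE 0.04, edgeR adjusted p = 0.0347) as 1 of 25 genes. The fractions of a replicate are also separate libraries, each shared by both conditions. Fraction and library therefore cannot be told apart, and the 4 pools are not independent pairs of libraries. *Col9a2* stood at 1322, 1402, 1449 and 1511 CPM in tdT+ and 1587, 1672, 1744 and 1642 in tdT- cells (-0.23, -0.37 to -0.09, edgeR adjusted p = 0.570). *Col9a3* was at -0.13 (-0.24 to -0.01) and *Col11a2* at -0.17 (-0.33 to -0.01). At an unadjusted p under 0.05 there were 4 of the 7, against 5.85% of all genes, and *Col9a1* (-0.10), *Col11a1* (-0.08) and *Col27a1* (-0.05) were not among them.

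The zones were not evenly sorted. Hypertrophic-like cells made up 0% to 6.06% of the chondrocyte-like cells in tdT+ and 8.43% to 18.7% in tdT- samples, and *Col10a1*, their defining collagen, was at -4.77 (edgeR adjusted p = 0.145). Without the hypertrophic-like cells *Col2a1* was at -0.19 (edgeR adjusted p = 0.946), *Col9a2* at -0.19 and *Col9a3* at -0.14, and *Col11a1* turned to 0.06. The difference between the p21 responses of the fractions was tested as an interaction. Of 12720 genes 0 (0%) passed in edgeR and 0 in DESeq2 and in limma voom, with 345 (2.71%) at an unadjusted p under 0.05, and the 7 genes ranged from -0.14 for *Col11a1* to 0.29 for *Col27a1*, none of them under 0.05.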

How the data were processed

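Single-cell 3′ libraries of 4 samples were analysed. The authors aligned reads with Cell Ranger 7.2.0 to GRCm38 plus transgene sequences. The deposited values are raw UMI counts. No barcode had under 500 UMIs, many had under 1000, and CellBender and DoubletFinder were not rerun. The 7 genes, the marker and gene lists and the tests were chosen with earlier results of these data known.

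A barcode needed 1000 UMIs, 500 genes and no more than 10% mitochondrial UMIs. Sex needed 2 UMIs of *Xist* or Y-linked genes with 80% from 1 side. Cells with 2 UMIs of both, and in each library the 5% of barcodes from 3000 UMIs with the highest Scrublet score (its own threshold marked 0 to 3 barcodes a library), were left out as doublets. No sex could be given to 178, 349, 455 and 2747 barcodes of tdT+ 1, tdT- 1, tdT+ 2 and tdT- 2, so most cells of tdT- 2 were not used. Cells were clustered (scanpy 1.11.5, 2000 variable genes, 30 components, 15 neighbours, Leiden 1) without the 7 genes and 483 cell-cycle genes. A cluster was named from 3 markers detected in at least 10% of cells and 1.5-fold above other clusters, with a marker score of at least 0.5 or 2 of the markers among its 10 leading genes, and a chondrocyte cluster took a zone from 2 zone markers among those 10. These rules were set after seeing clusters.

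UMIs were summed per class, library and condition and tested in edgeR 4.0.16 (R 4.3.3; filterByExpr, TMM, glmQLFit, glmQLFTest), with sorted fraction or condition as covariate and an adjusted p (Benjamini-Hochberg) of 0.05. Intervals are 95%. Chondrocyte-like sums held 887769 to 8209493 UMIs. Two-sided exact permutation tests of 4 against 4 allow no p under 0.0286. The test was checked on simulated counts. Alternatives were DESeq2 1.42.0, limma voom 3.58.1, other size factors, no filter, other barcode and clustering settings, replicate blocks and leaving out each sample. The named genes are the 7, *Cdkn1a* and the transgenes, list members that passed or the 2 with the lowest p, and for each of the 7 the 3 genes most like it over clusters. A library holds both conditions in 1 reaction: deviations from condition means correlated within libraries at r = -0.02, 0.02, -0.03 and 0.11, and between the fractions of an embryo pool at 0.27, 0.08, 0.15 and 0.39.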

Additional observations from a re-analysis of the deposited data

Results flagged for a closer look

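In 11 of 105 groups of samples checked, the highest or lowest value stood far from the rest by Dixon's test, and chance flags about 1 in 20 groups. The fibroblast-like control cells of tdT- 1, a sum of 16 cells, were highest of 7 for 6 genes: *Col2a1* at 795 CPM (next 208), *Col9a1* at 179 (83.2), *Col9a2* at 280.3 (138), *Col9a3* at 456 (123), *Col11a1* at 468 (255) and *Col11a2* at 64.7 (14.4). In resting-like cells, *Col2a1* was lowest in the control cells of tdT+ 1, at 4949 TMM-scaled CPM (next 5608), *Col11a2* was highest in the Pan-Cart-p21MOE cells of tdT- 1, at 534 (466), and *Col27a1* in those of tdT+ 2, at 393 unscaled CPM (336). *Col11a1* was highest in the interzone-like control cells of tdT- 2, at 2016 CPM (1041), and *Col11a2* lowest in the osteoprogenitor-like Pan-Cart-p21MOE cells of tdT+ 1, at 30.1 CPM (114).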

How the results depend on the processing

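The 7 genes were called in 0 of 154, 1 of 126 and 0 of 133 combinations of gene and setting for Pan-Cart-p21MOE against control in chondrocyte-like, resting-like and proliferative-like cells, in 2 of 140 for tdT+ against tdT-, and in 0 of 140 for the interaction. In the main fits, 0.532%, 0%, 0.0852%, 0.0246% and 0% of all genes tested passed, in the same order. The calls were *Col11a1* in resting-like cells with barcodes from 3000 UMIs (1 of the 7), and *Col2a1* between fractions with no filter on low counts and with the embryo pool as replicate block (1 of the 7 each). Counts over all genes in the other settings follow without the number tested, so these calls are not set against a share. The cause was not tested for any change given here.

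Counts of all genes called moved more. For chondrocyte-like p21 (65) they were 180 with DESeq2, 119 with voom, 520 with no filter, 40 at a Leiden resolution of 0.5 and 16 with the fractions of a pool summed. For resting-like cells (0) they were 15, 6 and 110 with DESeq2, voom and no filter, 102 from 3000 UMIs, and 1 each with the 7 genes in the clustering and with fractions summed. For proliferative-like cells (8) they were 22, 13, 153, 2 from 3000 UMIs and 15 with the 7 genes in the clustering. Between fractions (3) they were 15, 1, 232, and 10 at Leiden 0.5, and for the interaction (0) 35 with no filter and 2 at Leiden 0.5. Leaving out a sample gave 20 to 78 (20 without the Pan-Cart-p21MOE cells of tdT+ 2), 0 to 34 (34 without the control cells of tdT+ 1), 0 to 18 (0 without the Pan-Cart-p21MOE cells of tdT- 2, 18 without the control cells of tdT+ 2), 1 to 9 and 0 to 1.

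With the replicate block, the pairing by library gave 56, 0 and 12 genes for chondrocyte-like, resting-like and proliferative-like cells and 0 of the 7, with *Col2a1* at 0.13 and *Col27a1* at -0.23 in chondrocyte-like cells. The block by embryo pool gave 25 genes between fractions and 1 for the interaction, and changed no other call among the 7.

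Directions turned for log2 differences near 0. For chondrocyte-like p21, *Col9a1* was at -0.053 from 3000 UMIs, -0.069 with the 7 genes in the clustering, -0.084 at Leiden 0.5, -0.060 without hypertrophic-like cells, -0.065 without cluster 12, -0.017 with clusters 15, 18, 20 and 21 added and -0.011 with fractions summed. *Col9a2* was at -0.064, -0.084 and -0.044 in the first 3, -0.080 without cluster 12 and -0.020 summed. *Col9a3* was at -0.069, -0.098 and -0.077 in the first 3, -0.086 without cluster 12, -0.020 with the clusters added and -0.012 summed. In resting-like cells *Col9a1* was at 0.014 with no filter, 0.044 from 3000 UMIs and 0.015 with the 7 genes in the clustering, and *Col27a1* at -0.076 from 3000 UMIs, -0.013 with the 7 genes in and -0.019 summed. Between fractions *Col11a1* was at 0.063 without hypertrophic-like cells. In the interaction, from 3000 UMIs and with the 7 genes in the clustering, *Col2a1* was at -0.011 and -0.063, *Col9a1* at -0.044 and -0.088, *Col9a2* at -0.069 and -0.12 and *Col9a3* at -0.12 and -0.17. At Leiden 0.5 *Col9a1*, *Col9a2* and *Col9a3* were at -0.0049, -0.033 and -0.11 and without cluster 12 at -0.036, -0.051 and -0.11, and without hypertrophic-like cells *Col9a3* was at -0.051 and *Col11a1* at 0.054. *Col11a2* was at 0.00042 with no filter. Leaving out a sample also turned, in chondrocyte-like cells, *Col9a1* (-0.034 to 0.057), *Col9a2* (-0.0084 to 0.067) and *Col9a3* (-0.014 to 0.042), in resting-like cells *Col9a1* (-0.10 to 0.058), *Col9a2* (-0.016 to 0.097) and *Col27a1* (-0.10 to 0.064), in proliferative-like cells *Col2a1* (-0.22 to 0.050) and *Col11a2* (-0.26 to 0.068), between fractions *Col27a1* (-0.10 to 0.044), and in the interaction *Col9a1* (-0.00047 to 0.18), *Col9a3* (-0.042 to 0.087), *Col11a1* (-0.29 to 0.036) and *Col11a2* (-0.11 to 0.046).

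Mean chondrocyte-like levels moved by more than 1 SD for *Col9a1* (1686 CPM; 1800.3 from 3000 UMIs, 1827 at Leiden 0.5), *Col9a3* (3401; 3644 from 3000 UMIs, 3571 with the 7 genes in the clustering), and at Leiden 0.5 *Col11a1* (3270 from 2750.0), *Col11a2* (727 from 651) and *Col27a1* (486 from 419). With the 7 genes in the clustering, unzoned over resting-like log2 ratios were 0.39 for *Col2a1*, 0.61 for *Col9a1*, 0.25 for *Col9a2*, 0.095 for *Col9a3*, 1.17 for *Col11a1*, 0.92 for *Col11a2* and 0.80 for *Col27a1*. Thinning lowered the shares of cells with a UMI to 96.3%, 74.3%, 72.9%, 88.3%, 83.7%, 42.1% and 28.4% in the same order. Resting-like and proliferative-like classes did not form at Leiden 0.5, so that setting was not run for them. The perichondrium-like class (165 cells) did not form there or from 3000 UMIs, and held 62 cells with the 7 genes in the clustering. From 3000 UMIs, leading genes of that class (*Csrnp3*, *Foxp2*) and of unzoned cluster 12 (*BC006965*, *Bmp5*, *Bmper*) headed the same unnamed cluster of 185 cells. The fibroblast-like class formed in none of these settings. The runs without hypertrophic-like cells or cluster 12, with clusters added and on cluster 10 alone were chosen after seeing the data. Small resting-like and proliferative-like sums (from 11 and 8 cells) limit what those comparisons can detect.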

Other observations

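The 4 unnamed clusters of Pan-Cart-p21MOE cells from replicate 2 held cartilage collagens at the levels given here as values over all their cells, with no test. *Col2a1* stood at 3333 CPM in cluster 15, 3325 in cluster 18, 3153 in cluster 20 and 6612 in cluster 21. *Col11a1* stood at 2344, 1897, 1833 and 3816 CPM and *Col27a1* at 560, 321, 199.7 and 391 CPM in the same order. In cluster 18 the leading gene was *Cdkn1a*. The median UMI count of cluster 15 was 0.150 of that of its own library, and that of cluster 18 was 0.256.

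The spread over single chondrocyte-like cells differed between the 7 genes. Over 981 cells of at least 3000 UMIs, the 95th percentile was 7.74 times the 5th for *Col9a3*, 8.37 times for *Col9a2*, 8.90 times for *Col2a1*, 11.9 times for *Col9a1* and 13.9 times for *Col11a1*. It was 30.3 times for *Col11a2*, which was at 0 in 38 cells, and 29.9 times for *Col27a1*, which was at 0 in 48 cells. The counts of these 2 genes are also the lowest, and the part of counting error in this spread was not tested.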
